A study of Arabidopsis thaliana with 8 samples.

Results

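The strongest GNC peaks are 472 regions of the Arabidopsis nuclear genome that carried a high score in both peak lists of the myc-GNC line. GNC is a GATA transcription factor of the LLM-domain type. A region was selected on its scores: a nuclear peak of the replicate 1 list with a score of at least 100 that overlaps by 1 bp or more a replicate 2 peak with a score of at least 100. The score is the MACS peak score (−10 × log10 p), which rises as the p-value of the immunoprecipitate against the INPUT falls, and the lowest score listed was 50. Of the 4734 nuclear GNC peaks found in both lists, 9.97% met this rule, and the remaining 4262 are called the other peaks below. Because the score chose the regions, their scores and lengths are given as a description and were not tested.

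The data came from whole rosette leaves of 3-week-old Col-0 plants grown in long days. One line overexpressed myc-GNC and the other overexpressed myc-CGA1, each with a c-myc epitope tag, and CGA1 is the closest paralog of GNC. Chromatin was immunoprecipitated with an anti-myc antibody in 2 biological replicates per line, each with an INPUT library of sonicated chromatin that was not incubated with the antibody. The promoter driving the transgenes is not given in the sources used here, and an untagged control was not analysed here.

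GATA factors bind short sites built around the letters GATA through a zinc finger. The paper cites work in which plant GATA factors preferred GATC to GATA. GNC and CGA1 are induced by light and cytokinin, and are known in Arabidopsis for promoting chlorophyll synthesis and chloroplast development and for restraining gibberellin responses and flowering. A ChIP-seq peak marks DNA recovered with the tagged protein, and does not by itself show that a nearby gene responds.

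The sequences of 9 regions are shown because the results below turn on them. Capitals mark GATA words on either strand (GATA or TATC) and GATC words, coordinates are TAIR10, and letters were read from the RefSeq copy of that assembly, whose nuclear chromosome lengths match. The first set is the 4 narrow peaks among the 15 highest scores, shown whole.
AT1G37010 (chr1:14040512-14040697, forward strand): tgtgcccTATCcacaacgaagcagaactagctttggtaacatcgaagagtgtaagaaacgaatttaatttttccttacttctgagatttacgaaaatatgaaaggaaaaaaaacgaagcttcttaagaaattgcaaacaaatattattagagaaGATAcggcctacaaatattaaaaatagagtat
SPX2 (chr2:11338873-11339066, forward strand): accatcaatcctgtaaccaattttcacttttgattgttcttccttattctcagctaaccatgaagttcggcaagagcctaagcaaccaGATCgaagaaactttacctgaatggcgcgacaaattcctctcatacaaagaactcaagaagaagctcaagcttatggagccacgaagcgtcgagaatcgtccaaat
AT4G12000 (chr4:7193841-7194028, forward strand): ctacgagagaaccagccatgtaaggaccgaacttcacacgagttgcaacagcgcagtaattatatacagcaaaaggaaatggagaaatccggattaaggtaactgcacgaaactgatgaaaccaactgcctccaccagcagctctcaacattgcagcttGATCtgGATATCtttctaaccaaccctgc
AT3G55410 (chr3:20542854-20543040, forward strand): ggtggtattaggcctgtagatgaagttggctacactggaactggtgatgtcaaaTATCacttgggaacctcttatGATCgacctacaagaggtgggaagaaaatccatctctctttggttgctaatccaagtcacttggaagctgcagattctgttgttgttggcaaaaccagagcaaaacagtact
The second set is the central 201 bp of the highest-scoring region, followed by the stretches of 2 regions where GNC and CGA1 peaks coincided in every list.
AT2G00340 (chr2:9868-10068, forward strand): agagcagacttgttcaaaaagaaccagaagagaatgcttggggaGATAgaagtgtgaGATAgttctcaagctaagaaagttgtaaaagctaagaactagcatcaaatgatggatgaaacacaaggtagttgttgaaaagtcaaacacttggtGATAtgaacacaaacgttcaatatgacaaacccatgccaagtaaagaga
CCoAOMT1 (chr4:16311920-16312219, forward strand): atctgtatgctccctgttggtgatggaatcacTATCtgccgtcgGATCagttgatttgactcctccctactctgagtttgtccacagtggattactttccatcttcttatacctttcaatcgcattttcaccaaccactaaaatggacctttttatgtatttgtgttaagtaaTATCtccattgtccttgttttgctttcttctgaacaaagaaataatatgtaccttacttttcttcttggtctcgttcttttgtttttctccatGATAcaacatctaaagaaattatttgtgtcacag
AT3G63450 and the end of CKX6 (chr3:23426528-23426764, forward strand): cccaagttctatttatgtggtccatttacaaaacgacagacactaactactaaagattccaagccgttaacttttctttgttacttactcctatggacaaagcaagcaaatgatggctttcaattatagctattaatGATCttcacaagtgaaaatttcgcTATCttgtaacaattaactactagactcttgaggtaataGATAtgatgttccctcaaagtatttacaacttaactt
The third set is the central 201 bp of 2 regions upstream of genes for cytokinin response and chlorophyll synthesis.
RR10 (chr4:15447600-15447800, forward strand): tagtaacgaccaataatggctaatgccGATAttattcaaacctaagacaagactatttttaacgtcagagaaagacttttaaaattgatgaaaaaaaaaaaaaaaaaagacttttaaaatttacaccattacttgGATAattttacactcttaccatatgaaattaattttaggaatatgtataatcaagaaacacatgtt
CHLM (chr4:12876010-12876210, forward strand): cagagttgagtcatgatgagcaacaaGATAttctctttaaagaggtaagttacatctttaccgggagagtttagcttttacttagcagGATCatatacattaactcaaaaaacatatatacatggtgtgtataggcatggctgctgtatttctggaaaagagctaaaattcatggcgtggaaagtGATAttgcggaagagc
The SPX2 sequence held no GATA word and 1 GATC word, whereas the AT2G00340 sequence held 3 GATA words and no GATC word. The CCoAOMT1 sequence held 3 GATA words and 1 GATC word, and the CHLM sequence held 2 and 1.

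The lists behind the selection were alike. The replicate 1 list held 5744 nuclear peaks and the replicate 2 list 5721, with 624 and 651 peaks at a score of at least 100. Every one of these high-scoring peaks was also present in the other list, where 152 of the 624 and 179 of the 651 scored below 100. All 4734 shared peaks had identical edges in both lists, so the lists were counted as 1 sample and each region has 1 length and 1 position. How the edges came to be identical was not tested.

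Scores of the 472 regions ran from 100.21 to 556.44 in replicate 1, with a median of 119.5, and from 100.13 to 646.47 in replicate 2, with a median of 119.5. The score was higher in replicate 2 for 215 regions, higher in replicate 1 for 203, and equal for 54. The size of the difference had a median of 7.45 and was under 10 for 280 regions. The 3 largest differences were at AT3G45740, which encodes a hydrolase family protein (137.62 in replicate 1 and 240.04 in replicate 2), at the chromosome 2 region described next (556.44 and 646.47), and at the long non-coding RNA gene AT3G02265 (115.54 and 186.64). All 3 were higher in replicate 2.

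**Figure D1:**
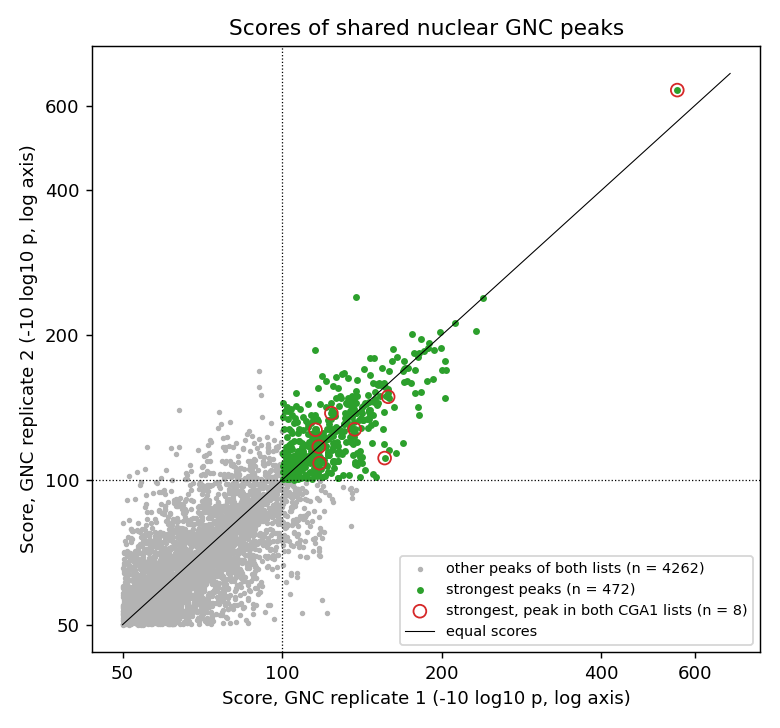
Score of each nuclear GNC peak found in both lists, with replicate 1 on the x axis and replicate 2 on the y axis (both −10 × log10 p, log axes); dotted lines mark the minimum of 100 and the solid line equal scores. The 472 strongest peaks (green) lie around the line of equal scores, 1 region stands far above the rest at 556.44 and 646.47, and the 8 with a peak in both CGA1 lists (red rings) are spread over the range.

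The minimum of 100 cuts a continuous range. The 3 regions just inside it were at SAM1, an S-adenosylmethionine synthetase gene (105.24 and 100.13), upstream of AT1G26730 (100.21 and 104.03), and near SCRL2 (103.14 and 100.31). The 3 peaks just outside it were near AT2G42480 (99.88 and 126.54), at AT3G10439 (99.65 and 113.97), and upstream of AT4G37090 (99.61 and 103.49).

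The highest score by far was at chr2:9609-10328, a 720 bp region that covers the uncharacterized genes AT2G00340 and AT2G01023, close to the start of the chromosome 2 sequence. Its scores were 556.44 and 646.47, and 28.3% of its 50-base words occur elsewhere in the genome, the highest share among the 472 regions. The region ranked second was the 186 bp peak 314 bp upstream of the annotated start of AT1G37010, a spindle pole body component gene, with 239.11 in both lists. The third was a 738 bp peak at the start of the uncharacterized gene AT3G23450, with 211.62 in both lists. The top region thus stood well above every other region in either list, and the regions after it followed each other closely.

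The next regions lay in varied places. A 557 bp peak near LCR16, a low-molecular-weight cysteine-rich protein gene, scored 231.79 and 204.11 and had its centre near a transcript end. An intergenic peak 1120 bp upstream of the lipase gene AT2G30220 scored 198.80 and 202.62, and was the highest of the intergenic class. The 194 bp peak near the start of SPX2, whose product takes part in phosphate sensing, scored 188.88 and 192.29 and was the highest with its centre in a coding exon. The highest scores thus lay in transcript-end, intergenic and coding sequence as well as in promoters.

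A peak near the uncharacterized gene AT3G28193 scored 188.47 in both lists. An intron peak in the ubiquitin-protein ligase gene AT2G36370 scored 199.56 and 187.79. A promoter peak 201 bp upstream of PME44, a pectin methylesterase gene of the cell wall, scored 193.38 and 186.14. These 3 regions were 816, 373 and 820 bp long.

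The 188 bp peak in a coding exon of AT4G12000, annotated as a SNARE-associated Golgi protein gene, scored 185.02 and 185.30. A peak upstream of the pseudogene AT5G33380 scored 182.92 and 196.73. The 187 bp peak in a coding exon of AT3G55410, which encodes the E1 component of 2-oxoglutarate dehydrogenase in the citric acid cycle, scored 181.32 and 183.82. Narrow peaks inside coding exons thus gave 3 of the 12 highest scores.

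A peak 253 bp upstream of APL3, a subunit of the enzyme that makes ADP-glucose for starch, scored 180.17 in both lists. An intergenic peak 1869 bp upstream of AT1G77200, a gene of the integrase-type DNA-binding (AP2/ERF) family, scored 177.01 and 183.96. A peak near the uncharacterized gene AT3G52710 scored 202.57 and 176.66. With these the 15 highest regions are complete, and 5 of the 15 were 650 bp or longer and 4 were under 200 bp.

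Length set the strongest peaks apart from the other peaks in both directions. Their median length was 432 bp with quartiles at 255 and 580.5 bp, against 381 bp with quartiles at 319 and 439 bp for the other peaks. Of the 472 regions, 66 (14.0%, 95% Wilson interval 11.1 to 17.4) were under 200 bp and 89 (18.9%, 15.6 to 22.6) were 650 bp or longer. Among the other 4262 peaks these shares were 0.54% and 3.24%. Length and score come from the same reads, so this contrast is a description.

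**Figure D2:**
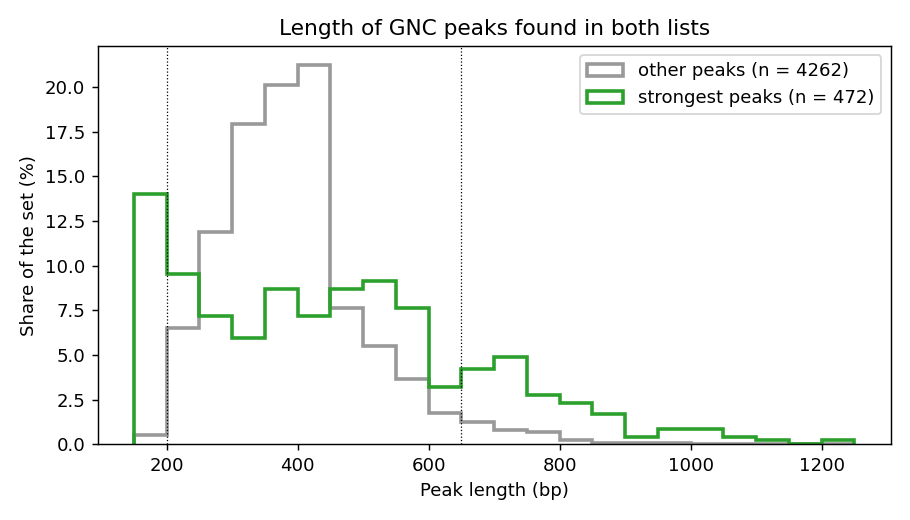
Length in bp of the 472 strongest peaks (green) and the 4262 other peaks (grey), as the share of each set per 50 bp class; dotted lines mark 200 and 650 bp. The strongest peaks have 14.0% of their number under 200 bp, where the other peaks have 0.54%, and a heavier tail above 650 bp.

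The shortest regions were 156 bp peaks at ABCG6, a transporter of the suberin barrier (135.53 and 148.18), and at the start of APA1, an aspartic proteinase gene (143.57 and 104.83), and a 158 bp peak upstream of PEX22, a peroxisome protein gene (142.64 and 169.87). The longest were 1209 bp over PAO5, a polyamine oxidase gene (111.06 and 132.51), 1106 bp over the RING/U-box gene AT4G01023 (140.15 and 108.70), and 1073 bp in an intron of AT4G32350 (111.83 and 110.45). The 66 regions under 200 bp had a median GC content of 37.4%, against 35.9% over all 472 regions. A CGA1 peak of either list overlapped 0 of these 66 regions, which allows a share of up to 4.55%. That limit lies above the 2.75% of all 472 regions and the 2.83% of all shared GNC peaks.

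Both extremes grew with the score. The share under 200 bp was 0 of 1817 peaks at lower scores of 50 to 60 (which allows a share of up to 0.165%, taking 3 counts of the total as the limit for a count of 0), 3.17% at 80 to 100, 13.1% at 100 to 120, and 20.5% of the 44 regions at 150 and over. The share of 650 bp or longer was 1.21%, 8.50%, 14.4% and 38.6% in the same classes. The promoter share and the share with a CGA1 peak had no such course: the promoter share was 36.7% at 50 to 60 and 34.1% at 150 and over.

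**Figure D3:**
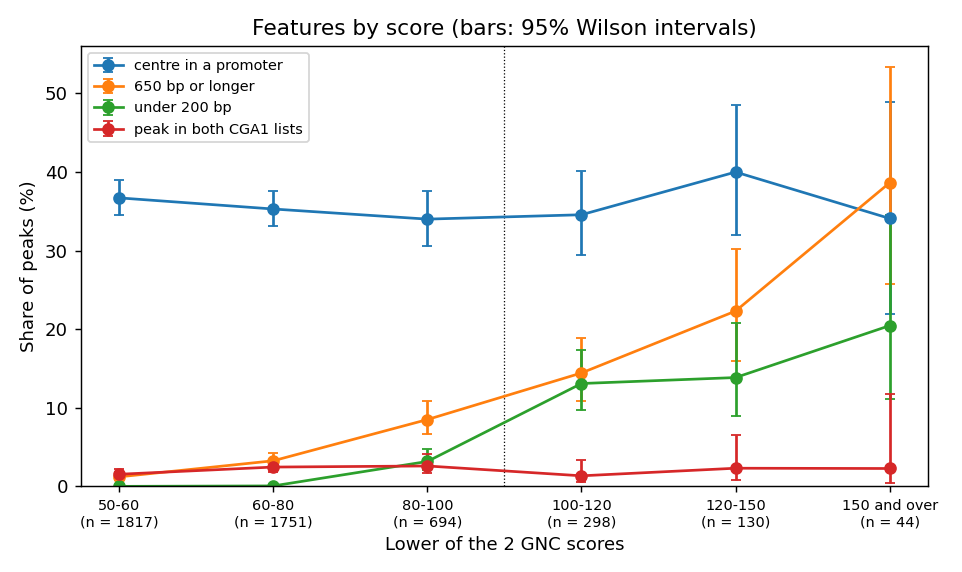
Share of GNC peaks (%) with 4 features, by the lower of the 2 GNC scores on the x axis; points are shares, bars are 95% Wilson intervals, and the dotted line marks the minimum of 100. Peaks under 200 bp rise to 20.5% and those of 650 bp or longer to 38.6% in the top class of 44 regions, while the promoter share stays between 34.0% and 40.0%.

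By location the strongest peaks were like the other peaks. A promoter is taken as 1000 bp upstream to 100 bp downstream of an annotated transcript start. The centre lay in a promoter in 170 of 472 regions (36.02%, 95% Wilson interval 31.8 to 40.4), in 35.7% of the other peaks, and at 32.0% of nuclear bases. Windows at transcript ends held 95 regions (20.1%, against 20.5% of the other peaks) and coding exons 89 (18.9% against 17.1%). Introns after the first held 38 (8.05% against 8.59%), intergenic sequence 37 (7.84% against 9.71%), and first introns 18 (3.81% against 3.12%). The 5′ UTR class held 9 (1.91% against 1.48%) and the 3′ UTR class 7 (1.48% against 1.01%). Non-coding exons held 9, or 1.91% of regions, against 2.79% of the other peaks and 6.57% of nuclear bases.

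**Figure D4:**
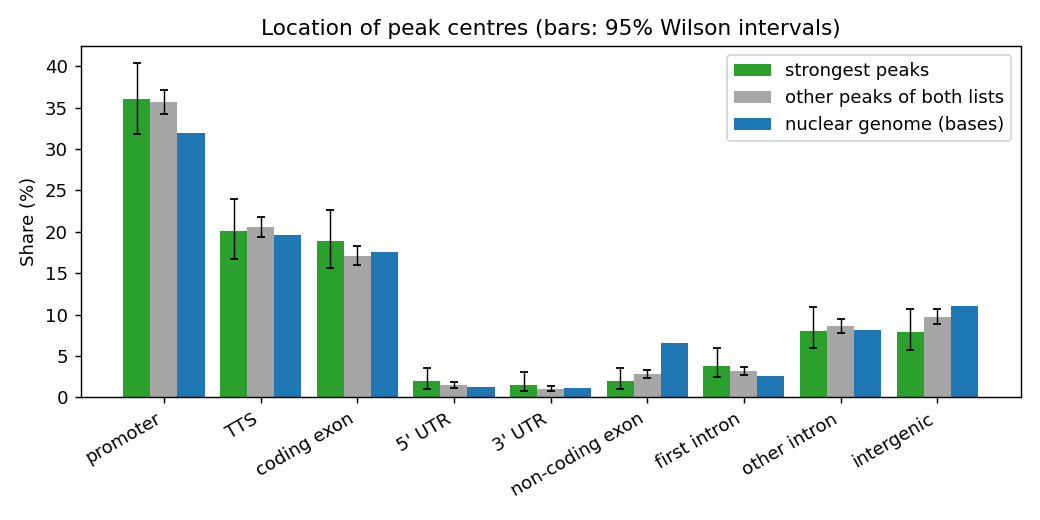
Share of peak centres (%) in each location class for the 472 strongest peaks (green), the 4262 other peaks (grey), and all bases of the nuclear genome (blue); error bars are 95% Wilson intervals. The promoter share is 36.02%, 35.7% and 32.0% in this order, and the intervals of the strongest peaks cover the values of the other peaks in every class.

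The highest region of each remaining class was as follows. In first introns it was a peak in MOB1-like, whose product belongs to a kinase-activating family that controls growth (200.66 and 169.55). In the 5′ UTR class it was at AT3G54740 (151.67 and 144.50), and in the 3′ UTR class near AT4G21950 (161.27 and 176.87). In non-coding exons it was near the long non-coding RNA gene AT1G06443, with 130.72 in both lists.

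Distances to genes were also alike. The nearest annotated transcript start lay a median of 800.5 bp from the centre for the strongest peaks and 833 bp for the other peaks, and within 200 bp for 74 regions (15.7% against 16.4%). The nearest gene was protein-coding for 397 regions (84.1%, against 82.8% of the other peaks) and a long non-coding RNA for 29 (6.14% against 6.80%). It was a tRNA gene for 9 (1.91%, interval 1.01 to 3.58, against 0.77% of the other peaks) and a microRNA gene for 3 (0.64% against 0.68%). A pseudogene was nearest for 15 regions (3.18%, interval 1.94 to 5.18), against 5.44% of the other peaks. Transcribed pseudogenes, annotated as a separate class, went the other way, with 8 regions (1.69%, interval 0.86 to 3.31) against 1.38%. Gene-poor 500 kb bins, with fewer than 57.6 protein-coding genes, held 25 regions (5.30%) against 6.62% of the other peaks and 14.7% of nuclear bases.

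Base composition was close to that of the other peaks, as were most words. Median GC content was 35.9% against 35.8%, and the genome had 36.03%. A 50-base word that occurs elsewhere in the genome was present in 9 regions (1.91%, interval 1.01 to 3.58), near the 2.63% of the other peaks. A word of the organelle genomes was present in 0 of 472, which allows a share of up to 0.636%. The other peaks had 0.047%. In the central 201 bp a GATA word was present in 381 regions (80.7%), in 81.4% of the other peaks, and in 80.6% of all non-overlapping genomic windows of that length. The WGATAR motif was present in 44.3%, 45.1% and 45.1%.

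A GATC word was present in 212 regions (44.9%, interval 40.5 to 49.4), in 49.3% of the other peaks and 48.9% of windows. The TCP-type word GGNCCC was present in 5.08%, 5.28% and 4.87%, and the E-box CANNTG, which includes the G-box, in 54.0%, 53.7% and 52.8%. The G-box CACGTG, a light-response element, was present in 2.97%, 3.17% and 2.21%. The GAGA word GAGAGA was present in 19.1%, 17.4% and 17.1%, and the telo-box AAACCCTA in 2.33%, 2.86% and 2.64%. In the central 101 bp a GATC word was present in 24.2% of regions (interval 20.5 to 28.2), in 28.4% of the other peaks and 29.1% of windows. In the central 501 bp, where the GATC shares were 79.87%, 79.99% and 79.45%, the telo-box was present in 3.60% of regions (2.26 to 5.69), 6.41% of the other peaks and 6.23% of windows. In the central 101 bp the telo-box shares were 1.48%, 1.38% and 1.34%, so its lower share was not seen there. Words were searched on both strands, and a match is not evidence of a bound site.

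Few of the strongest GNC peaks carried a CGA1 peak. A peak of both CGA1 lists overlapped 8 of the 472 regions (1.69%, 95% Wilson interval 0.86 to 3.31), and the share over all 4734 shared GNC peaks was 2.05%. Either CGA1 list gave 13 regions (2.75%) against 2.83% over all shared GNC peaks. The CGA1 lists shared 1918 peaks, of which these 8 are 0.42%, and 146 of the 1918 scored at least 100 in both lists, of which 2 overlapped a strongest GNC peak. The median distance to the nearest CGA1 peak of replicate 1 was 16520.5 bp for the strongest peaks and 14496.5 bp for the other peaks. For CGA1 replicate 2 the medians were closer, at 15821 and 15148.5 bp. Its upper quartile was lower for the strongest peaks (29292 against 30279.5 bp).

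The 8 regions include the highest-scoring one, chr2:9609-10328, where CGA1 scored 318.32 in replicate 1 and 610.72 in replicate 2. CGA1 also passed 100 in both lists at chr4:16311805-16312393, with 133.89 and 127.75 beside GNC scores of 158.49 and 148.91. That peak overlaps the 3′ part of CCoAOMT1, a methyltransferase gene of lignin synthesis, and lies 1267 bp upstream of DML3, a DNA demethylase gene. At the other 6 regions the CGA1 scores were between 50.33 and 80.21. The rule puts every GNC score at 100 or more, so CGA1 scores below them are not a separate result. Over all 1918 peaks shared by the CGA1 lists the median scores were 66.4 in replicate 1 and 65.3 in replicate 2.

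Among these 6, the peak at chr3:23426460-23426990 lies mostly over the end of the RNA-binding protein gene AT3G63450, and also reaches the end of CKX6, a gene for a cytokinin-degrading oxidase. Its GNC scores were 115.61 and 127.16 and its CGA1 scores 80.21 and 74.35. The peak 72 bp upstream of AT5G08780, a winged-helix transcription factor gene, had GNC scores of 156.08 and 111.02 and CGA1 scores of 76.08 and 61.99. An intron peak in ASN3, an asparagine synthetase gene near ANNAT7, had GNC scores of 123.86 and 137.64 and a CGA1 score of 58.21 in both lists.

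The peak near AT1G12120 scored 117.26 in both GNC lists, whereas CGA1 had 67.05 in each replicate. A peak that just reaches the end of ORG1 had GNC scores of 117.69 and 108.35 and CGA1 scores of 58.32 and 60.88. The stretch it shares with the CGA1 peaks lies in the long non-coding RNA gene AT5G07995, outside ORG1. The peak 1053 bp upstream of PAPP2C, a phytochrome-associated phosphatase gene, had GNC scores of 137.07 and 127.41, and met the CGA1 peak (50.33 and 53.02) over only 11 bp. Those 11 bp lie in the end of ZYP1b, which the GNC peak overlaps. That peak also overlaps the long non-coding RNA gene AT1G05737, with its centre 36 bp upstream of the start. A single CGA1 list had a peak at 5 further regions, including a coding exon of MYB16, a regulator of cuticle formation, where GNC scored 107.30 and 103.95 and CGA1 59.72 in replicate 2.

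**Figure D5:**
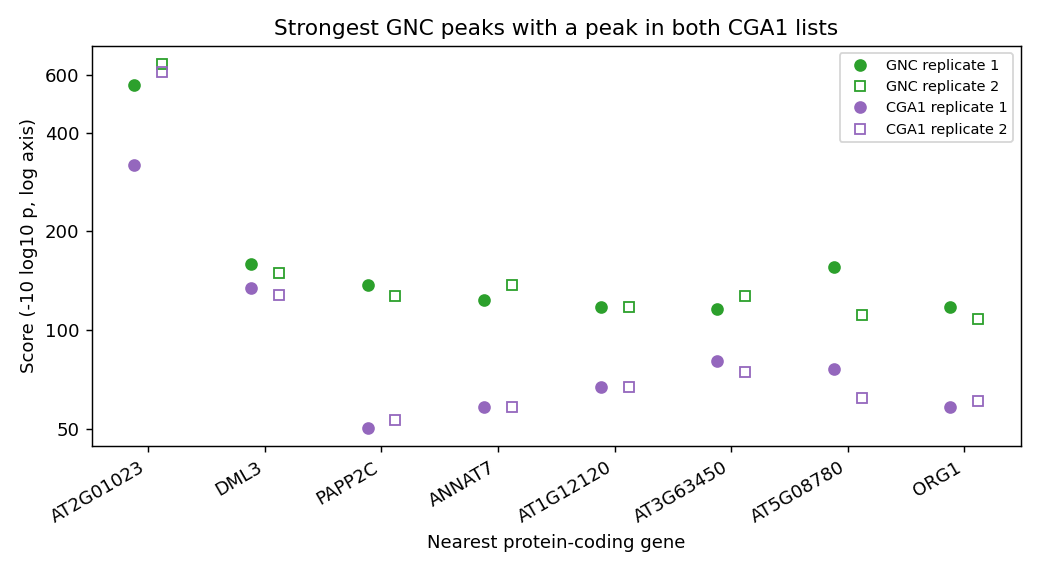
Scores (−10 × log10 p, log axis) in the 4 lists at the 8 strongest GNC peaks that have a peak in both CGA1 lists, by nearest protein-coding gene; green is GNC, purple is CGA1, filled circles are replicate 1 and open squares replicate 2. Among these 8 regions the one at AT2G01023 has the highest scores in all 4 lists, and at 6 of the 8 regions the CGA1 scores lie between 50.33 and 80.21.

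Genes for chloroplast function were among the nearest genes. By keywords in the annotation, 13 regions (2.75%) had such a nearest protein-coding gene, against 2.60% of the other peaks. The highest was an intron peak in PDE312, a component of the plastid RNA polymerase complex, with 169.87 in both lists. HCF101, an iron-sulphur cluster factor needed for photosystem I, had an intron peak of 153.45 and 157.40.

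Other peaks of this group lay at starts, further upstream or within the gene. SAPX, the stromal ascorbate peroxidase, had a peak at its start (124.53 and 156.77), and G6PD1, a plastid glucose-6-phosphate dehydrogenase, one 141 bp upstream (123.34 in both lists). CHLM, the magnesium protoporphyrin IX methyltransferase of chlorophyll synthesis, had a peak 712 bp upstream with 117.09 and 114.72. TOC75-III, the protein import channel of the outer envelope, had a coding exon peak of 164.11 and 113.67.

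Transcription factor keywords matched the nearest gene of 44 regions (9.32%, interval 7.02 to 12.3), against 8.02% of the other peaks. Some of these matches rest on a general DNA-binding annotation. SPL14, a regulator of shoot architecture, had a coding exon peak of 155.96 and 158.93, and PAT1, a GRAS protein of phytochrome A signalling, one of 146.45 and 164.89. WRKY67 had a 188 bp peak 36 bp upstream of its start with 142.17 and 142.40. BRC1, which represses axillary bud growth, had a coding exon peak of 146.98 and 130.33.

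Cytokinin and other hormone genes were also present. Hormone keywords matched 17 regions (3.60%), against 4.20% of the other peaks. RR10, a type-B response regulator of cytokinin signalling, had a peak 658 bp upstream with 122.16 and 133.08. Another type-B regulator, ARR11, had one 2996 bp upstream with 117.19 in both lists. The SAUR-like auxin-responsive gene AT4G09530 had the highest score of the group, 172.47 and 171.24, at its start, and the brassinosteroid regulator BZR1 had a peak 266 bp upstream with 107.86 and 140.65.

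Light, clock or flowering keywords matched 11 regions (2.33%, interval 1.31 to 4.12), against 1.29% of the other peaks. Keyword patterns were reworded after the regions' nearest genes had been seen, so the interval cannot show a difference for this or any keyword group. Besides PAT1 and PAPP2C the matches include PRR3, a clock pseudo-response regulator (158.93 and 115.21), and FAR1, a transcription factor of phytochrome A signalling (103.05 in both lists). Kinase, receptor or phosphatase keywords matched 29 regions (6.14% against 7.46%), with the protein kinase gene AT1G33260 highest at 187.89 and 160.91. These matches include kinases of lipids and carbohydrates as well as protein kinases. Ubiquitin ligase and F-box keywords matched 20 regions (4.24% against 4.48%), with AT2G36370 highest. Some of these matches are loose: TBL11, a trichome birefringence-like gene, is annotated as neither kind. AT3G53680 matched as an acyltransferase with a zinc finger domain.

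Cell wall keywords matched 14 regions (2.97%, interval 1.77 to 4.92, against 1.83%). PME44 was the highest, and the expansin gene EXPA21, whose product loosens cell walls, had a peak 506 bp upstream with 118.39 in both lists. Transporter keywords matched 17 regions (3.60% against 3.17%), of which 15 lay within the gene. For nearest protein-coding genes of every kind, 46.8% of the 472 regions and 45.3% of the other peaks lay within the gene. Transporter genes of the other peaks were not compared in this respect. The highest was at the start of SUT2, a sucrose transporter gene, with 152.74 and 149.20.

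Of the 17 genes looked up by name because the study discusses them, SOC1, a flowering integrator, was the one with a strongest GNC peak within 1 kb. That peak overlaps the end of AGL6, a floral MADS-box gene, 769 bp from SOC1, and scored 145.81 and 139.14. The CGA1 gene itself carried a GNC peak of 74.87 and 82.02, below the minimum, and its nearest strongest peak, in AT4G26170, was 3366 bp away. TCP13 (96.38 and 84.71), CRF2 (94.04 and 69.45) and LHCB5 (84.54 and 75.76) carried GNC peaks below the minimum in both lists.

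The regions were scattered over the genome. Chromosomes 1 to 5 held 113, 89, 94, 79 and 97 of them. These are 23.9%, 18.9%, 19.9%, 16.7% and 20.6%, against 25.2%, 16.9%, 20.2%, 15.3% and 22.4% of the other peaks. The nearest protein-coding genes of the 472 regions were 466 different genes. Neighbouring regions came within 5 kb of each other in 16 cases, in 5 of which the nearest protein-coding gene was the same. The closest pair was 676 bp apart at AT5G22480, with scores of 125.34 and 137.64 for the first peak and 130.49 and 102.33 for the second. At the pectin methylesterase inhibitor gene AT3G49220 a pair 879 bp apart scored 122.16 and 113.83, and 148.77 and 145.35.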

How the data were processed

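ChIP-seq peaks came from 8 libraries, an immunoprecipitate and an INPUT in 2 replicates for each of 2 lines. The authors trimmed the reads, aligned them to TAIR10 with Bowtie2 2.2.6, removed reads matching several loci, and called peaks against the INPUT with MACS, so that peaks in repeated sequence can be missed. The deposited values are scores (−10 × log10 p) of 4 lists, one per immunoprecipitate; read depths were not used here, and intervals cover the counting of peaks only. BED starts were converted to 1-based positions. Peaks were compared by overlaps of at least 1 bp, centres were placed on RefSeq annotation (37899 nuclear genes, 27444 protein-coding), and shares were given 95% Wilson intervals, or for a count of 0 the limit of 3 counts of the total, in Python 3.11.15 with numpy 2.4.6 and pandas 2.3.3. No test was made, since the score chose the regions. Functions were checked on simulated intervals. The regions, keyword lists and genes looked up were chosen with earlier results of these data known; keyword patterns were reworded into general family terms after the regions' nearest genes had been seen. Named regions are the 15 highest, those with a CGA1 peak, the highest per class and group, those at the minimum, and the extremes of length and score difference; further genes were picked after their values were seen. Alternatives varied the score minimum, list, overlap, promoter window, bin, word length and word window.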

Additional observations from a re-analysis of the deposited data

Results flagged for a closer look

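The chloroplast genome carried 1 peak that lies outside the nuclear regions described above but passed the same minimum in both GNC lists. It spans 4099 bp of the chloroplast sequence (positions 110292 to 114390), and scored 147.34 in GNC replicate 1 and 344.93 in GNC replicate 2. The CGA1 lists held no organelle peak. It drew attention as a signal in data that the comparisons did not use, and the difference between the replicates was not tested.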

How the results depend on the processing

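With a score minimum of 80 there were 1166 regions and with 150 there were 44, with a median length of 536.5 bp against 432 bp. Using one GNC list alone gave 624 to 651 regions. The promoter share was 31.4% with protein-coding genes only, 22.7% with a window from 500 bp upstream, and 47.5% when any part of the peak could lie in the window. The share with a CGA1 peak was 0.64% at a reciprocal overlap of 50%. The GATA share was 98.3% with 250 bp on each side and 56.1% with 50 bp, and the GATC share 79.9% and 24.2%; a wider window holds more words by its construction. With a minimum of 80, 7.55% of regions were under 200 bp and 12.7% were 650 bp or longer, against 0.028% and 2.21% of the peaks below it, so both length contrasts kept their direction with smaller shares. Small differences from the remaining peaks turned with the minimum of 80: the promoter share was 34.8% against 36.01%, the share with a peak of both CGA1 lists 2.23% against 1.99%, the GATA share 82.0% against 81.1%, and the GATC share 49.4% against 48.7%. The GAGA word turned in the central 501 bp (34.5% against 38.2%), and the TCP-type word in the central 101 bp (2.75% against 2.49%). In the central 101 bp the telo-box (1.48% against 1.38%) and the G-box (1.69% against 1.55%) turned as well. So did the E-box (30.7% against 31.9%). No paired analysis was possible because no test was run on replicates. Limits: no read counts used, 2 replicates with identical edges, no untagged control, and a score that depends on depth and INPUT.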

Other observations

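The same score recurred at unrelated regions, mostly short ones. In replicate 1, 33 of the 472 regions had one of 3 scores that occurred 5 times or more, led by 117.19 and 127.30 at 12 regions each, and 32 of the 33 were under 300 bp. In replicate 2, 32 regions had one of 3 such scores, led by 127.30 at 13 regions and 117.19 at 12, and 31 of the 32 were under 300 bp. The median length of these regions was 231 bp in replicate 1 and 242.5 bp in replicate 2, against 453 bp for the rest in both. The 54 regions with equal scores in both lists had a median length of 401 bp.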
